A study of Mus musculus with 10 samples.

Results

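The genes described here encode the subunits, assembly factors, activators and inhibitor of the proteasome. They were taken as every gene whose single symbol in the platform annotation begins with Psma, Psmb, Psmc, Psmd, Psme, Psmf or Psmg and a digit, apart from Psmb8, Psmb9 and Psmb10. That gave 46 of the 18193 genes with a probe set of their own, and 99 of 45101 probe sets. Of these genes 16 belong to the core, 17 to the cap, 7 to assembly, 3 to the activators and 1 is an inhibitor. The other 2, Psmc3ip and Psme3ip1, are named after proteins they bind and are no subunits. Psme2 shares its probe set with Psme2b in the annotation and was therefore not among the members.

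RNA came from the liver of 10 mice, all labelled ApoE-/-, and each mouse had an Affymetrix mouse expression array of its own. In the control group, 5 mice (arrays 11 to 15) carried an adenovirus expressing GFP, a fluorescent protein. In the other group, 5 mice (arrays 16 to 20) carried an adenovirus expressing dominant negative cJun, written dn-cJun below. cJun is a subunit of the transcription factor AP-1, and the title of the study places it in the control of lipid homeostasis. The age, strain background, sex and diet of the mice, the dose of virus and the time after infection are given in none of the sources used here, nor is the share of liver cells that took up virus.

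The proteasome is the large protease that degrades proteins tagged with ubiquitin. Its core is a barrel of alpha and beta rings with the catalytic sites inside, and its cap, built of a base with a ring of ATPases and a lid, recognises ubiquitin, unfolds the substrate and feeds it into the core. Other activators can replace the cap, dedicated chaperones assemble the parts, and the transcription factor NFE2L1 is known to raise many subunit genes together when proteasome activity falls short. The median member tested had a signal at percentile 96.3 of all probe sets.

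The deposited intensities had array medians between 85.3 and 127.5, and after quantile normalization any pair of arrays had a Pearson correlation of 0.948 to 0.965. All values below are log2(intensity + 16) after that normalization, so a difference of 1 is a doubling, and differences understate the change of dim genes. Apoe, the gene described as lost, was at 9.42 to 10.94 in the controls and 15.31 to 15.82 on arrays labelled dn-cJun, which goes against the genotype label of that group. These arrays are called "labelled dn-cJun" for that reason, and each direction given here is between groups that also differ in Apoe signal. Jun was at 10.43 ± 0.24 (SD, n = 5) against 10.37 ± 0.37 (SD, n = 5), and since the part of Jun carried by the virus is not given, it does not check the virus label. Xist was at 13.71 and 13.63 in controls 14 and 15 and at most 6.72 in the other 8 arrays. Eif2s3y, also a sex-linked transcript, was at 5.22 and 4.08 in these controls and at 10.58 to 11.13 in the other 8 arrays. The groups are thus unbalanced in sex-linked transcripts, and the main fit has no term for sex. The members were therefore also fitted without these controls. All 9 hepatocyte markers looked for were above the filter on low signal, of which albumin (Alb) had a signal at percentile 99.97.

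Proteasome genes as a group lay at nearly the same level in both groups. The filter on low signal kept probe sets with a mean at or above the 40th percentile, and 44 members passed it. Of these, 21 were higher and 23 lower on arrays labelled dn-cJun, with a median log2 difference of -0.02. Over all 12736 genes tested 49.7% were lower and the median was 0.00. Apart from Psmc3ip, the estimates ran from -0.39 for Psmd11 to 0.30 for Psmd13. In 43 of the 44 members the 95% interval of the difference, without adjustment for the number of genes, lay inside a change of 1.5-fold in either direction, against 64.1% of all genes tested. These shares are not of like genes. Most members are bright, while the genes tested reach down to the 40th percentile, and dim genes such as Psmc3ip (SE 0.33) can have wide intervals. Psmc4 counts as inside by its probe set at -0.10, not by its other one at -2.07. In RNA from whole liver, fewer cells of a type and less RNA per cell cannot be told apart.

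A single member passed the test. Psmd11, a subunit of the lid, fell by 0.39 on the log2 scale (limma adjusted p = 0.0401, Benjamini-Hochberg over all genes tested), 1 of 44 members against 0.777% of all genes tested (0.432% lower and 0.345% higher). With an unadjusted p under 0.05 there were 5 members, 4 lower and 1 higher, against 14.9% of all genes (7.47% lower and 7.42% higher). The groups did not overlap in 3 members, against 4.22% of all genes (2.13% lower and 2.1% higher). These 3, Psmd6, Psmd11 and Psmd13, all encode lid subunits, and their differences had both signs. When each of the 87 member probe sets above the filter was tested on its own, in a second fit that gives the adjusted p of any single probe set below, 2 passed, the same Psmd11 probe set and 1 of 2 for Psmc4, against 0.744% of the 22847 probe sets tested.

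**Figure D1:**
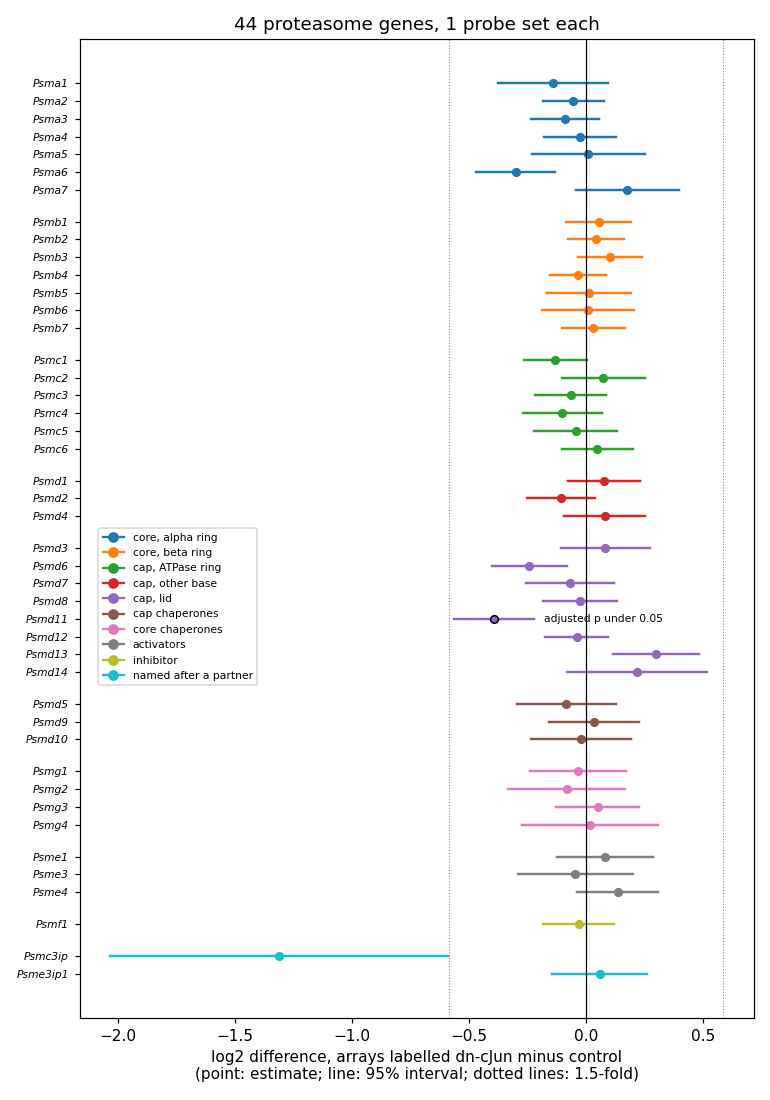
Log2 difference between arrays labelled dn-cJun and control arrays (n = 5 each) for 44 proteasome genes, 1 probe set per gene, coloured by role; points are estimates, lines 95% intervals and dotted lines mark a change of 1.5-fold. All intervals but that of Psmc3ip lie within the dotted lines, and Psmd11 at -0.39 is the member with an adjusted p under 0.05.

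The largest difference in the family was in a probe set of Psmc4. Psmc4 encodes an ATPase of the ring that unfolds substrates, and its symbol is carried by 2 probe sets annotated to the same transcript. Probe set 1416290_a_at was at 12.78, 12.003, 12.48, 12.28 and 12.39 in controls 11 to 15, and at 10.18, 10.10, 11.14, 10.17 and 9.997 in arrays 16 to 20. All arrays labelled dn-cJun lay below all controls, and array 18 was the highest of its group. The means were 12.39 ± 0.28 and 10.32 ± 0.47 (SD, n = 5 each), a difference of -2.07 (SE 0.19), or a 4.19-fold lower signal (limma adjusted p = 0.000366). By its p-value this probe set ranked 3 of the 22847 tested.

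The other Psmc4 probe set, 1416291_at, gave no such difference. It was at 11.97, 11.76, 11.85, 11.65 and 11.73 in the controls and at 11.75, 11.76, 11.80, 11.58 and 11.56 on arrays labelled dn-cJun, and the groups overlapped. Its difference was -0.10 (SE 0.08, limma adjusted p = 0.632). Within each array, the log2 signal of the first probe set minus that of the second was 0.24 to 0.81 in the controls and -1.66 to -0.66 on arrays labelled dn-cJun. The probe set with the higher mean stands for a gene in the test per gene, so Psmc4 was not called there. With all probe sets of a gene averaged instead, Psmc4 was at -1.08 (limma adjusted p = 0.00501).

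The deposited intensities, before quantile normalization, show the same split. Probe set 1416290_a_at read 8061, 4249, 5679, 4988 and 5954 in controls 11 to 15 and 1160, 941.4, 2118, 1012 and 958.0 in arrays 16 to 20. Probe set 1416291_at read 3168 to 4720 in the controls and 2697 to 3539 on arrays labelled dn-cJun. Without controls 14 and 15 the first probe set was at -2.11 (limma adjusted p = 0.00261), and with 1 array left out it lay between -2.27 and -1.98 and passed in 10 of 10 fits. Which part of the transcript each probe set reads is stated in none of the sources used here.

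The fall of Psmd11 likewise rested on 1 probe set. Psmd11 encodes a lid subunit known as a scaffold for the assembly of the whole particle. Probe set 1437080_s_at was at 13.98, 13.94, 13.95, 13.76 and 13.82 in controls 11 to 15 and at 13.52, 13.67, 13.63, 13.31 and 13.36 in arrays 16 to 20. The groups did not overlap, but the gap between them was small. The means were 13.89 ± 0.10 and 13.50 ± 0.16 (SD, n = 5 each), a difference of -0.39 (SE 0.08, limma adjusted p = 0.0401).

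Of its other probe sets, the 3 bright ones, at percentiles 96.3, 95.1 and 92.9 of signal, gave 0.01 (SE 0.09), 0.02 (SE 0.07) and -0.04 (SE 0.09), with overlapping groups. A dim one, 1431013_at, was at 4.72 to 6.13 in the controls and 6.37 to 7.48 on arrays labelled dn-cJun, a difference of 1.26 (SE 0.36, limma adjusted p = 0.141). In Affymetrix naming the ending _s_at marks probes shared by several transcripts, which can belong to different genes. The call of Psmd11 did not hold without controls 14 and 15 (-0.46, limma adjusted p = 0.0525), and it was kept in 1 of 10 fits with 1 array left out. With equal array medians the difference was -0.32 (limma adjusted p = 0.260), and with probe sets ending in _x_at and _s_at left out the gene was at 0.01.

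**Figure D2:**
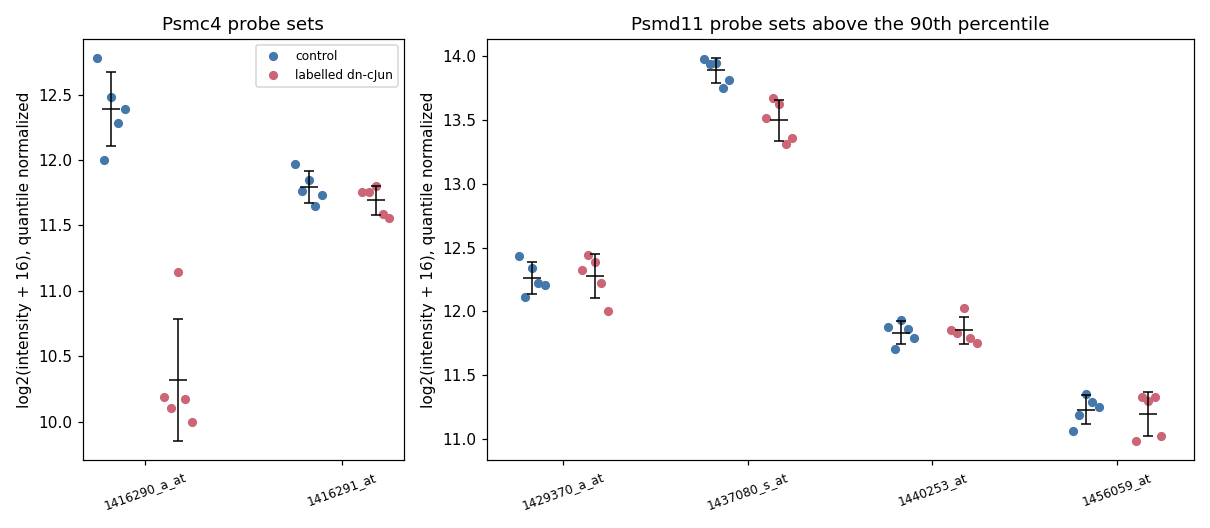
Log2(intensity + 16) after quantile normalization on each array for the Psmc4 probe sets (left) and the 4 brightest Psmd11 probe sets (right); points are arrays, bars the mean and SD of 5 arrays. Psmc4 probe set 1416290_a_at separates the groups (difference -2.07) while 1416291_at overlaps, and 1 of the 4 Psmd11 probe sets shown separates them.

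Probe sets of the same gene disagreed by at least 1 on the log2 scale in 2 members, Psmc4 and Psmd11. Of the 44 members, 22 had several probe sets above the filter, and in 17 of these the differences of the probe sets spanned less than 0.5. In 14 of the 22 the differences had both signs. The shares of all genes for these counts are not given here. In Psmc4 and Psmd11 the differences spanned 1.97 and 1.65. The upper end of the Psmd11 span was the dim probe set 1431013_at at 1.26, close to the filter at percentile 41.0 of signal. The bright Psmd11 probe sets ran only from -0.39 to 0.02, whereas both Psmc4 probe sets were bright. A span of at least 1.5 occurred in 0.256% of the 5858 genes with several probe sets above the filter, and one of at least 1 in 2.12%. The spans of Psma5, Psmc3ip and Psmg2 lay between 0.71 and 0.94, and each of these genes had a probe set close to the filter, at percentiles 49.7, 45.6 and 42.6 of signal.

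**Figure D3:**
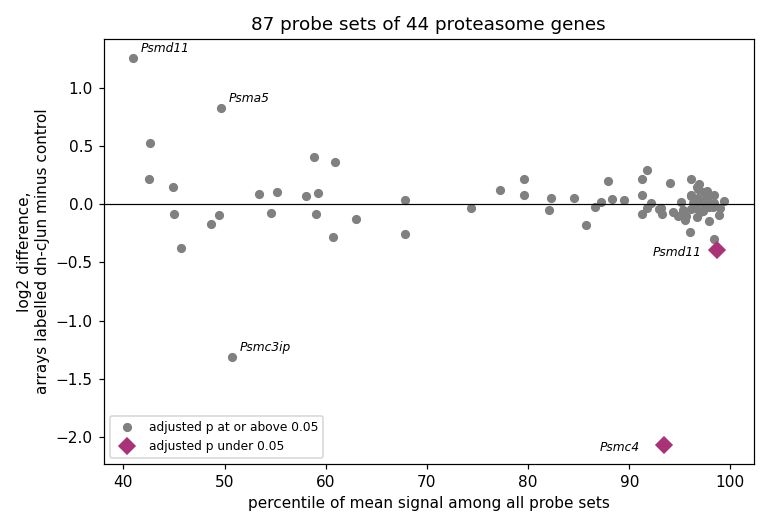
Log2 difference of the 87 member probe sets above the filter against the percentile of their mean signal among all probe sets; diamonds have an adjusted p under 0.05. Bright probe sets lie close to 0, with the Psmc4 probe set at -2.07 apart from them.

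The stretches before the starts of Psmc4 and Psmd11 are shown because these genes carried the probe sets that passed, and those of Psmb5 and Psmd9 because they hold matches to the binding motifs of NFE2L1 and AP-1. Each is the 250 bases before the RefSeq start on build GRCm38.p6, read 5′ to 3′ on the strand of the gene, at chr7:28050093-28050342 (minus strand), chr11:80428365-80428614 (plus), chr14:54617996-54618245 (minus) and chr5:123227940-123228189 (plus). Capitals mark GGGCGG, the GC box, or its reverse complement CCGCCC in Psmc4 and Psmd11. In Psmb5 they mark TGACNNNGC, the core of the antioxidant response element to which NFE2L1 and NFE2L2 bind. In Psmd9 they mark this core and TGANTCA, the letters used here for the AP-1 site, a loose form with any base at N.
Psmc4: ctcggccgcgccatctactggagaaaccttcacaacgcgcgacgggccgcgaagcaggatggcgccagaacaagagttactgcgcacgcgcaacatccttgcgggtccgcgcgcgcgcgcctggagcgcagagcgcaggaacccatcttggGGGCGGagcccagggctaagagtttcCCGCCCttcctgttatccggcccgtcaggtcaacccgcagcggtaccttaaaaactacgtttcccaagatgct
Psmd11: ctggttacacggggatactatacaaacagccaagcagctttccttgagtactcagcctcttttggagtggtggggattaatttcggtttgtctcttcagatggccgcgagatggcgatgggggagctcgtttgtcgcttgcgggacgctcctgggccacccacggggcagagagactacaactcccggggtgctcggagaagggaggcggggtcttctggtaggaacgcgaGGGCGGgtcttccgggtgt
Psmb5: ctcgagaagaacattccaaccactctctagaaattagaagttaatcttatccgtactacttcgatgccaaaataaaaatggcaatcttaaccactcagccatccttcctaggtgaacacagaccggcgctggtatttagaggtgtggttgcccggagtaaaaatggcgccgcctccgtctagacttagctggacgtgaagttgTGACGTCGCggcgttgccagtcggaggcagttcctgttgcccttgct
Psmd9: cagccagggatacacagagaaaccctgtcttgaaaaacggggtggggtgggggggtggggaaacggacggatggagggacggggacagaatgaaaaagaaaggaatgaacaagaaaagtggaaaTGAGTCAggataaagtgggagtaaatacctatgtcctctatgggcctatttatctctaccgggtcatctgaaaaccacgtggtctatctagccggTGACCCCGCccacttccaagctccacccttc

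Promoters were found for 38 of the 46 members, and both strands were searched over the same 250 bases. The AP-1 letters TGANTCA, which read the same on both strands, occurred in 1 member, Psmd9, or 2.63% of the members, against 7.82% of 27025 genes. That match lies 126 to 120 bases before the start. The antioxidant response element core TGACNNNGC (reverse complement GCNNNGTCA) occurred in 5 members, Psmb5, Psmb6, Psmc6, Psmd9 and Psmd12, or 13.2%, against 11.5% of all genes. It lies 47 to 39 bases before the start in Psmb5 and 31 to 23 bases before it in Psmd9. GC boxes occurred in 21 members, or 55.3%, against 35.4% of all genes, with a pair in Psmc4 and a single one 19 to 14 bases before the start of Psmd11. Neither Psmc4 nor Psmd11 held the AP-1 letters in this window. With 7.82% of all genes holding them, their absence from a gene is common, and AP-1 binding was not tested. Of the 5 genes with the antioxidant response element core none had an adjusted p under 0.05, beside 0.777% of all genes tested. At that share a call among 5 genes would be rare, and binding to these sites was not tested. Psmd9 itself, a chaperone of cap assembly, was at 0.04 (SE 0.09).

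The alpha ring of the core, which gates entry to the barrel, had 2 of its 7 tested genes higher and 5 lower, with a median of -0.05. Psma1, its reference member here, had a signal at percentile 97.9. It was at 13.47, 12.92, 13.16, 13.05 and 13.06 in controls 11 to 15 and at 13.04, 13.16, 13.16, 12.83 and 12.76 in arrays 16 to 20. The groups overlapped, with control 11 the highest array, and the difference was -0.14 (SE 0.11, limma adjusted p = 0.592). Psma2, Psma3 and Psma4 were at -0.05, -0.09 and -0.03, Psma5 was at 0.01 and Psma7 at 0.18.

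Psma6 had the smallest p of the ring. It was at 13.36, 13.42, 13.49, 13.63 and 13.68 in the controls and at 13.05, 13.26, 13.37, 13.24 and 13.17 on arrays labelled dn-cJun. Only array 18 reached the lowest control, and the means were 13.52 ± 0.14 and 13.22 ± 0.12 (SD, n = 5 each), a difference of -0.30 (SE 0.08, limma adjusted p = 0.102). A second bright Psma6 probe set, 1416506_at, had the opposite sign at 0.12 (SE 0.07, limma adjusted p = 0.482). The testis form Psma8 stayed below the filter, at percentile 31.5.

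The beta ring, which carries the catalytic sites, had 6 of 7 tested genes higher and 1 lower, with differences from -0.03 to 0.10 and a median of 0.03. Estimates for the constitutive catalytic subunits were close to 0. Psmb5, the chymotrypsin-like site, was at 12.998 ± 0.08 in the controls and 13.01 ± 0.18 on arrays labelled dn-cJun, a difference of 0.01 with a 95% interval of -0.16 to 0.19. Psmb6, the caspase-like site, differed by 0.01 (-0.19 to 0.20) and Psmb7, the trypsin-like site, by 0.03 (-0.10 to 0.16). Psmb3, a structural subunit with the smallest p of the ring, was at 12.79, 12.69, 12.66, 12.62 and 12.66 in the controls and at 12.67, 12.88, 12.85, 12.84 and 12.70 on arrays labelled dn-cJun. Its difference was 0.10 (SE 0.06, limma adjusted p = 0.480), with overlapping groups. Psmb1, Psmb2 and Psmb4 were at 0.05, 0.04 and -0.03, and the thymus form Psmb11 stayed below the filter, at percentile 37.8.

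The inducible catalytic subunits Psmb8, Psmb9 and Psmb10, which replace the constitutive ones under interferon, were not members but bear on the same ring. They differed by 0.04 (SE 0.16), 0.08 (SE 0.17) and 0.12 (SE 0.18), none with an adjusted p under 0.05. Their SD among the 5 controls was 0.40, 0.41 and 0.43, where that of Psmb5, Psmb6 and Psmb7 was 0.08, 0.06 and 0.11. On arrays labelled dn-cJun the SDs were closer, at 0.15, 0.22 and 0.26 for the inducible and 0.18, 0.21 and 0.06 for the constitutive subunits. Over the 44 members tested the control SD ran from 0.03 (Psmb2) to 0.33 (Psmc3ip). Wide control spreads were not particular to the inducible subunits. In the interferon and antigen processing genes listed below they ran from 0.36 to 1.03, except in B2m, at 0.06. These spreads were not tested.

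In the cap, 7 of 17 tested genes were higher and 10 lower, with a median of -0.04. The ATPase ring had 2 of 6 higher. Psmc1, with the smallest p of the ring in the test per gene, was at 12.10, 12.14, 12.04, 11.95 and 12.01 in the controls and at 11.95, 11.94, 11.93, 11.95 and 11.82 on arrays labelled dn-cJun. The controls tended to be higher but control 14 fell among the other group, and the difference was -0.13 (SE 0.06, limma adjusted p = 0.344). Psmc2, Psmc3, Psmc5 and Psmc6 were at 0.07, -0.07, -0.04 and 0.05.

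Of the other base subunits, Psmd1, the scaffold of the base, was at 12.28, 12.03, 12.07, 12.16 and 12.16 in the controls and at 12.20, 12.32, 12.32, 12.15 and 12.09 on arrays labelled dn-cJun. The groups overlapped and the difference was 0.07 (SE 0.07, limma adjusted p = 0.673). Psmd2, a docking site for ubiquitin-like domains, was at 12.46, 12.45, 12.67, 12.55 and 12.35 against 12.36, 12.45, 12.37, 12.35 and 12.42. Its difference was -0.11 (SE 0.07, limma adjusted p = 0.494), with a smaller spread on arrays labelled dn-cJun (SD 0.04) than in the controls (SD 0.12), a contrast that was not tested. Psmd4, a ubiquitin receptor, was at 0.08.

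The lid held the 3 members, of 44 tested, whose groups did not overlap, against 4.22% of all genes tested. Only Psmd11 passed the test. Beside Psmd11, Psmd13 was at 10.77, 10.58, 10.85, 10.998 and 10.84 in the controls and at 11.06, 11.12, 11.26, 11.03 and 11.06 on arrays labelled dn-cJun. The groups did not overlap, and the difference was 0.30 (SE 0.08, limma adjusted p = 0.128). Its second bright probe set gave 0.20 (SE 0.08). Psmd6 was at 12.25, 12.40, 12.40, 12.10 and 12.15 against 11.98, 12.04, 12.07, 12.08 and 11.94, again without overlap, a difference of -0.24 (SE 0.07, limma adjusted p = 0.151). Its second probe set gave -0.10 (SE 0.09). Psmd14, the deubiquitinase of the lid, had a wide interval around 0.22 (-0.08 to 0.52), and Psmd3, Psmd7, Psmd8 and Psmd12 were at 0.08, -0.07, -0.03 and -0.04.

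The assembly factors lay close together, with all 7 between -0.08 and 0.05 and 3 of them higher. Psmd5, a chaperone of the base, was at 11.42, 11.17, 11.39, 11.23 and 11.42 in the controls and at 11.23, 11.48, 11.37, 11.19 and 10.95 on arrays labelled dn-cJun (difference -0.08, SE 0.10, limma adjusted p = 0.75). Psmg2, a chaperone of the alpha ring, was at 11.08, 10.99, 10.79, 10.95 and 10.66 against 11.07, 10.82, 10.78, 10.94 and 10.45 (difference -0.08, SE 0.12, limma adjusted p = 0.794). In both genes array 20 was the lowest and the groups overlapped. Psmd10, also called gankyrin, was at -0.02, and the core chaperones Psmg1, Psmg3 and Psmg4 were at -0.03, 0.05 and 0.02.

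Of the activators, Psme4, a large protein that opens the core without ATP, was at 12.61, 12.43, 12.48, 12.18 and 12.27 in the controls and at 12.46, 12.52, 12.61, 12.48 and 12.55 on arrays labelled dn-cJun. Controls 14 and 15 were the lowest arrays, the groups overlapped, and the difference was 0.14 (SE 0.08, limma adjusted p = 0.458). Without these controls it was 0.02 (SE 0.07). The next brightest Psme4 probe sets gave 0.18 (SE 0.07) and 0.22 (SE 0.09), with limma adjusted p = 0.288 and 0.316. Psme1, an interferon-induced activator subunit, was at 0.08 (SE 0.10) and Psme3, its nuclear relative, at -0.05 (SE 0.11). Psmf1, which inhibits the core, was at 11.03, 10.97, 10.98, 10.88 and 10.97 against 10.82, 10.87, 11.02, 11.05 and 10.93, a difference of -0.03 (SE 0.07, limma adjusted p = 0.879).

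Core, cap, assembly factors and activators thus had medians of 0.01, -0.04, -0.02 and 0.08 over 14, 17, 7 and 3 genes, beside 0.00 over all genes tested. With 1 array left out they ranged from -0.03 to 0.04 for the core and from -0.05 to -0.01 for the cap. The range was -0.04 to 0.02 for the assembly factors and 0.01 to 0.14 for the activators. The core and assembly medians thus had both signs. Over the 23 other settings tried, the cap and activator medians also turned sign, in 1 each, so none of these medians has a settled sign. Outside Psmc3ip, the standard error of a single member was 0.06 to 0.14. Without quantile normalization, on the deposited scale, the median of all genes was -0.19 and these medians were -0.13, -0.22, -0.23 and -0.04. Relative to all genes, the median of the 44 members was then at 0.02, and -0.02 in the quantile-normalized values.

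Leaving out controls 14 and 15, the arrays with high Xist, shifted the difference of single members by -0.11 (Psme4) to 0.19 (Psmg4). In limma's fit 0 of 44 members then had an adjusted p under 0.05, beside 0.408% of all genes, and 7 had an unadjusted p under 0.05, beside 13.7%. Psma7, of the alpha ring, was at 0.32 (SE 0.10, limma adjusted p = 0.178) in place of 0.18, Psmd13 at 0.38 (adjusted p = 0.104) and Psmd6 at -0.33 (adjusted p = 0.0765). Psme1 was at 0.19, Psmg4 at 0.20, Psma5 at 0.12 and the Psmc4 probe set 1416291_at at -0.17, none with an unadjusted p under 0.05. The sign turned in 7 members, Psma4, Psmb5, Psmb6, Psmb7, Psmd9, Psmd10 and Psme3, whose differences were at most 0.07 in size in either fit.

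Psmc3ip and Psme3ip1, the members that are no subunits, are described for completeness. Psmc3ip encodes a partner of meiotic recombinases. It was dim, at percentile 50.7, with 7.83, 7.34, 6.91, 7.41 and 7.35 in the controls and 6.48, 7.08, 5.34, 6.02 and 5.34 on arrays labelled dn-cJun. Only array 17 reached the lowest control, and the difference was -1.31 (SE 0.33, limma adjusted p = 0.0935). A second probe set gave -0.37 (SE 0.38). Psme3ip1 was at 0.06 (SE 0.09).

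Core and cap genes varied from array to array within each group. On array 18 all 14 core genes lay above their own mean over the 10 arrays, and on array 20 only 2 of 14 core and 2 of 17 cap genes did. On control 11, 14 of 17 cap genes lay above their mean, and on control 12 only 2 of 14 core genes. Over all genes tested, 50.6% to 54.4% lay above their own mean on any array. The median of the centred core genes was -0.05 to 0.07 in the controls and -0.08 to 0.10 on arrays labelled dn-cJun, and that of the cap genes -0.05 to 0.11 and -0.16 to 0.09. The groups overlapped in both.

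**Figure D4:**
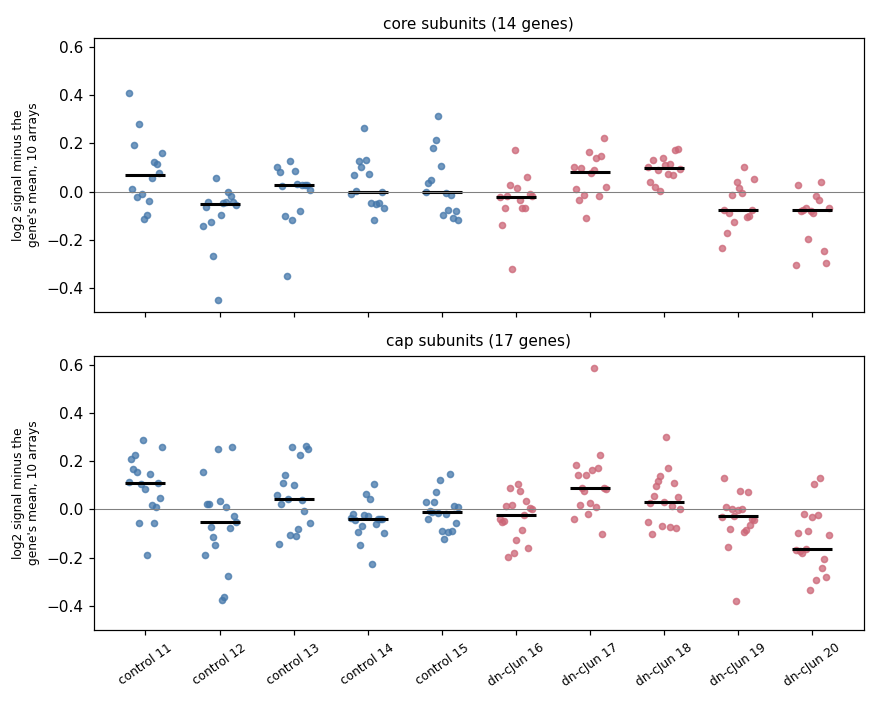
Log2 signal of each core gene (top, 14 genes) and cap gene (bottom, 17 genes) on each array, less the mean of that gene over the 10 arrays; points are genes, black bars their median, blue control arrays and red arrays labelled dn-cJun. Core and cap medians are lowest or near lowest on array 20 and above 0 on arrays 17 and 18, within 1 group.

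Genes that work with the proteasome gave no calls. Among other subunits, partners and assembly factors, 12 were tested, and 8 of them were higher, for a median of 0.07. Zfand5, a proteasome-binding zinc finger protein, led this list by p-value, at -0.25 (SE 0.09, limma adjusted p = 0.232). Of 12 genes of ubiquitin shuttles and the VCP segregase 6 were higher and 6 lower, with Ufd1 at 0.23 (SE 0.09, limma adjusted p = 0.272). The transcription factors that act on proteasome genes and their processing enzymes had 4 of 7 higher, and Mafg, a small partner of NFE2L1, was at -0.21 (SE 0.08, limma adjusted p = 0.239). Heat shock genes had 3 of 8 higher, with the inducible chaperone Hspa1a at 0.97 (SE 0.31, limma adjusted p = 0.158). Hspa1a was dim, at percentile 45.8 of signal and so close to the filter, with an SD of 0.65 in the controls. Interferon and antigen processing genes had 5 of 9 higher and a median of 0.00, with B2m at 0.05 (SE 0.05). Of the ubiquitin genes and activating enzymes 1 was measured, Uba6, at 0.05 (SE 0.14). In limma's fit 0 of these 49 genes had an adjusted p under 0.05, beside 0.777% of all genes tested, and 10 had an unadjusted p under 0.05, which is 20.4% beside 14.9% of all genes.

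Of the cell marker lists, 2 held markers past the threshold, 1 of 12 for proliferation and 2 of 10 for macrophages, beside 0.777% of all genes tested. All 12 proliferation markers tested were lower on arrays labelled dn-cJun (median -0.39), beside 49.7% of all genes, and of these Ccnb2, a mitotic cyclin, fell by 0.71 (limma adjusted p = 0.0323). Their summed linear signal was 24148 to 42729 in the controls and 19672 to 23880 on arrays labelled dn-cJun. Of 10 macrophage markers 7 were lower (median -0.15), and Lyz2 and Cd5l fell by 0.70 and 0.57 (limma adjusted p = 0.0294 and 0.0323), with summed signals of 27012 to 42021 against 25879 to 30750, which overlap. All 9 hepatocyte markers were higher, by a median of 0.05, and none passed the threshold. Ass1, an enzyme of the urea cycle, had the smallest p of them, at 1.12 (SE 0.41, limma adjusted p = 0.22). Its probe set was the dimmest of the 9, at percentile 76.5, with SDs of 0.89 in the controls and 0.73 on arrays labelled dn-cJun. The summed signals of the hepatocyte markers overlapped at 343121 to 380775 against 364859 to 397320. Lymphocyte, endothelial, stellate and bile duct lists had 4 of 8, 5 of 6, 2 of 6 and 1 of 4 markers higher and no member past the threshold. The differences of the 3 prime and 5 prime control probe sets overlapped between the groups, at -0.51 to -0.40 against -0.52 to -0.35 for Gapdh. The part of these cell markers in the values of Psmc4 and Psmd11 was not tested.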

How the data were processed

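Liver RNA of 10 mice was measured on 1 array each, 5 per group. The deposited values are linear intensities per probe set, and the software and scaling that made them are stated in none of the sources used here. Values became log2(intensity + 16) of the deposited intensities, were quantile normalized, and probe sets with a mean under the 40th percentile were left out. Probe sets with 1 symbol were kept (34945 of 45101, with 932 naming several genes, 9160 unnamed and 64 controls), and the one with the highest mean stood for a gene. Groups were compared with limma 3.58.1 in R 4.3.3 (lmFit, eBayes with trend), with Benjamini-Hochberg adjustment over the 12736 genes, or 22847 probe sets, and a threshold of 0.05. Tested on simulated data for this comparison over 12736 genes, the fit recovered 37.3%, 74.5% and 94.5% of genes changed by 0.5, 1 and 2 on the log2 scale, and 5.18% of calls were false. The number of arrays limits the precision. Values on every array are given for Psma1, Psmd1, members past the threshold and the member with the smallest p in each role, and genes outside the family are named if past the threshold or with the smallest p in their list. Psmd6, Psmd13, Psmb5, Psmb6, Psmb7, Psmb8, Psmb9, Psmb10 and the probe sets of Psmc4 were described further after their values were seen. The members and lists were chosen with earlier results of these data known. Promoters come from RefSeq, build GRCm38.p6, and motif letters were matched with no mismatch. Other scalings, pseudocounts, filters, probe set rules, limma settings and arrays left out were tried.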

Additional observations from a re-analysis of the deposited data

Results flagged for a closer look

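In 5 of 90 groups of 5 arrays examined, 1 array lay far from the other 4 (the gap to the nearest was over 0.71 of the range of the group), a share that chance alone gives in about 1 of 20 groups. Array 18 was the highest array labelled dn-cJun for the Psmc4 probe set 1416290_a_at, at 11.14 against 9.997 to 10.18 on the others. Array 20 was the lowest of that group for the ATPase Psmc1, at 11.82 against 11.93 to 11.95. Array 19 was the highest for Psmd10, at 10.40 against 9.97 to 10.02. Array 18 was the lowest for the core chaperone Psmg1, at 11.15 against 11.27 to 11.31. Among the controls, array 14 was the highest for the activator Psme3, at 9.79 against 9.43 to 9.53. Without array 18 the Psmc4 probe set was at -2.27 (limma adjusted p = 3.08e-06).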

How the results depend on the processing

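No paired analysis was possible because the groups share no replicate number. Over all genes, 44 were higher and 55 lower past the threshold. The values as deposited gave 22 and 468, the mean of probe sets 16 and 28, eBayes without trend 4 and 5, a threshold of 0.01 gave 3 and 5 and one of 0.1 gave 120 and 130. Equal array medians gave 20 higher, leaving out controls 14 and 15 gave 13 higher, and array weights gave 85 lower. With 1 array left out there were 3 to 97 higher and 10 to 102 lower. Of the 44 members, 1 was lower past the threshold. It was 0 with equal array medians, equal trimmed means, no filter, probe sets ending in _x_at and _s_at left out, no trend, controls 14 and 15 left out or a threshold of 0.01, and 2 with a threshold of 0.1. With 1 array left out it was 0 to 1, and only the fit without control 12 kept the call. Psmd11 changed sign with the mean of probe sets (0.12, adjusted p = 0.726) and without _x_at and _s_at (0.012, adjusted p = 0.970). The values as deposited gave 4 members lower past the threshold, Psma6 (-0.42), Psmc3ip (-1.49), Psmd6 (-0.42) and Psmd11 (-0.48), and put 41 of 44 below 0 in place of 23. The medians were then -0.17 over all members, -0.13 for the core, -0.22 for the cap, -0.23 for the assembly factors and -0.037 for the activators, beside -0.19 over all genes. Of the member probe sets, 2 passed. The count was 5 with the values as deposited, and 1 with 1 probe set a gene, equal array medians, equal trimmed means, no filter, _x_at and _s_at left out, no trend, controls 14 and 15 left out, or any 1 array left out (1 to 1). The fits on single probe sets under these settings were added after the data were seen. The Psmc4 probe set 1416290_a_at passed in 22 of 22 alternatives, at -2.27 to -1.98. Among 1011 values of members under alternatives, 946 stayed within the spread between replicates and on the same side of the threshold. Another 45 moved by more without crossing the threshold, 14 lost and 4 gained it, and 2, both of Psmd11, lost it with a change of sign. Sign changes of members not called have no class of their own here and were more frequent. Psmg4 changed sign in 8 of 23 alternatives and Psmb6 in 6 of 23. In at least 1 alternative 5 members passed. The cause was not tested. Nothing in the labels says whether the mice were handled in batches.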
